A study of Mus musculus with 16 samples.

Results

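Cytosolic ribosomal protein genes were examined in whole colon of mice with and without colitis. They were taken as every gene symbol in the deposited tables that starts with Rpl, Rps or Rplp and a digit, leaving out the ribosomal S6 kinases, whose symbols start with Rps6k. This gave 49 genes of the 5171 distinct genes in the 4 tables. Of these, 26 carried large subunit names and 23 small subunit names, and 2 of the 49, Rpl23a-ps3 and Rps12-ps3, carried the -ps of a pseudogene name. A list of the 80 core cytosolic ribosomal proteins of the mouse has 76 symbols of this form, and 47 of the 76 were listed. The 4 core symbols of another form and the 9 paralogs on the list, such as Rpl3l, Rpl22l1 and Rps27l, were in none of the tables.

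The cytosolic ribosome joins a small subunit, which reads the messenger RNA, to a large subunit, which forms the peptide bonds. Most ribosomal proteins are present in a single copy per subunit, and the genes are expressed at high and coordinated levels. Their messenger RNAs typically begin with a run of pyrimidines (a C followed by several C or T bases) through which growth signals control their translation. In the gut, ribosome production is known to be high in the dividing cells at the base of the crypts and in activated immune cells.

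The mice were of the C57BL/6 strain. Some were wild type (WT). The others (KO) lacked Smarcad1, a chromatin remodelling ATPase, where Cre driven by the villin promoter had removed exons of the gene, that is in the intestinal epithelium, so that the other cells of the tissue kept it. Mice of all 4 groups had received an enriched microbiota by bedding transfer and shared air with donor females, begun 2 weeks before colitis induction, and the mice with colitis drank 1% dextran sulphate sodium (DSS) for 15 days. Libraries came from 3 control and 5 colitis mice of each genotype, and the RNA of each was depleted of DSS. The ages of the mice were not given in the sources used here.

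Each deposited table holds the genes that passed the authors' threshold in 1 comparison, with the authors' mean of log2 RPM (reads per 1000000 reads of the library) in each of the 4 groups. A difference of group means is called a change below, and it has no SD and no test, because values of single libraries were not analysed here. The geometric mean library size recovered from the low means was 10.1 M reads for the WT controls, 9.77 M for the KO controls, 8.005 M for the WT mice with colitis and 9.87 M for the KO mice with colitis. The authors' mean of Smarcad1 itself was lower in KO under both conditions, as the labels say, at 4.59 against 5.77 log2 RPM in control and at 4.55 against 5.68 in colitis. The tissue was labelled colon, and 2 of 10 colonocyte markers (Car1 and Slc26a3) were listed.

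Promoter sequence from RefSeq (GRCm38.p6) was held for 35 of the 49 genes. The windows below reach 30 bases to each side of the annotated transcription start, which is base 31. They belong to the 3 genes with the highest and the 3 with the lowest change in WT colitis among those with an entry. They are shown because a pyrimidine run at the start is typical of this gene family. Capitals mark a run that opens with a C followed by at least 4 more C or T bases, and that begins within 10 bases of the start. A run that begins farther away is not marked, as at the end of the Rpl11 window. A window without capitals therefore does not show that the gene lacks a run.
Rps12, chr10:23787180-23787239, minus strand: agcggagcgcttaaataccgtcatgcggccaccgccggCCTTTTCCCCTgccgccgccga
Rps21, chr2:180257349-180257408, plus strand: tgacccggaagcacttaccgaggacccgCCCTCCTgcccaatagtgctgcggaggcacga
Rpl24, chr16:55966245-55966304, plus strand: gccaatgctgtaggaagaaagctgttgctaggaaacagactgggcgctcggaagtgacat
Rpl11, chr4:136053364-136053423, minus strand: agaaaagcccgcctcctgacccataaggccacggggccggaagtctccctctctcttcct
Rps7, chr12:28635924-28635983, minus strand: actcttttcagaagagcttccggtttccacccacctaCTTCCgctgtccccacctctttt
Rps3a1, chr3:86142639-86142698, minus strand: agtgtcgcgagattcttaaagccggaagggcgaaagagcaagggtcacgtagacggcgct

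The run of Rps21 spanned its annotated start, and that of Rps12 began 8 bases after it. The annotated start was a C followed by 4 more C or T bases in 9 of the 35 ribosomal protein genes and in 3.01% of 27025 genes. Such bases were found within 10 bases of the start in 22 of 35 (62.9%) and in 34.4% of all genes. Among the 21 core symbols that have a promoter entry but are in no table, 12 (57.1%) held them there. The heptamer CCGGAAG, searched on both strands over the 300 bases, was in 17 of 35 (48.6%), 6 of 21 (28.6%) and 9.93% of all genes. ATGGCGG was found in 7 of 35 (20%), 2 of 21 (9.52%) and 4.69% of all genes, and TATAAA in 3 of 35 (8.57%), 3 of 21 (14.3%) and 15.7%. Each gene was counted once if any of its promoters held the motif, and a match in these letters is no measure of the factor.

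In KO mice the ribosomal protein genes were higher in colitis almost without exception and by small amounts. Of the 49 genes, 48 were in the table of genes that differed between colitis and control in KO, where 78.4% of all distinct genes stood, and each of the 48 was higher in colitis. Their changes ran from 0.18 for Rpl6 to 0.42 for Rps12 on the log2 scale. The median over the 49 genes was 0.30, and all 49 were above 0, against 54.3% of all distinct genes. The tables hold genes that passed a threshold, and the ribosomal protein genes came in through this comparison, so a difference in it was required of 48 of them and its size tends to be overstated.

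In WT mice the means of the same genes were also higher in colitis, by less, and Rps12 was the only one of the 49 in the table of WT, where 63.1% of all distinct genes stood. The median change in WT was 0.16, with a range from -0.01 for Rps3a1 to 0.35 for Rps12. The colitis mean was above the control mean in 48 of 49 genes, against 54% of all distinct genes. That share includes genes that fell. Of the 49 genes, 47 were listed through the KO comparison alone. The 876 other genes that were listed that way and rose in KO had a WT median of 0.22 and a lower quartile of 0.12. A higher WT mean is therefore not particular to the ribosomal protein genes. The median change of all 5171 genes was itself 0.13 in WT and 0.19 in KO. Relative to it, the median of the ribosomal protein genes was 0.03 in WT and 0.11 in KO, and 28 of 49 genes in WT and 47 of 49 in KO lay above it. That a gene was not in the WT table does not show that it did not change.

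**Figure D1:**
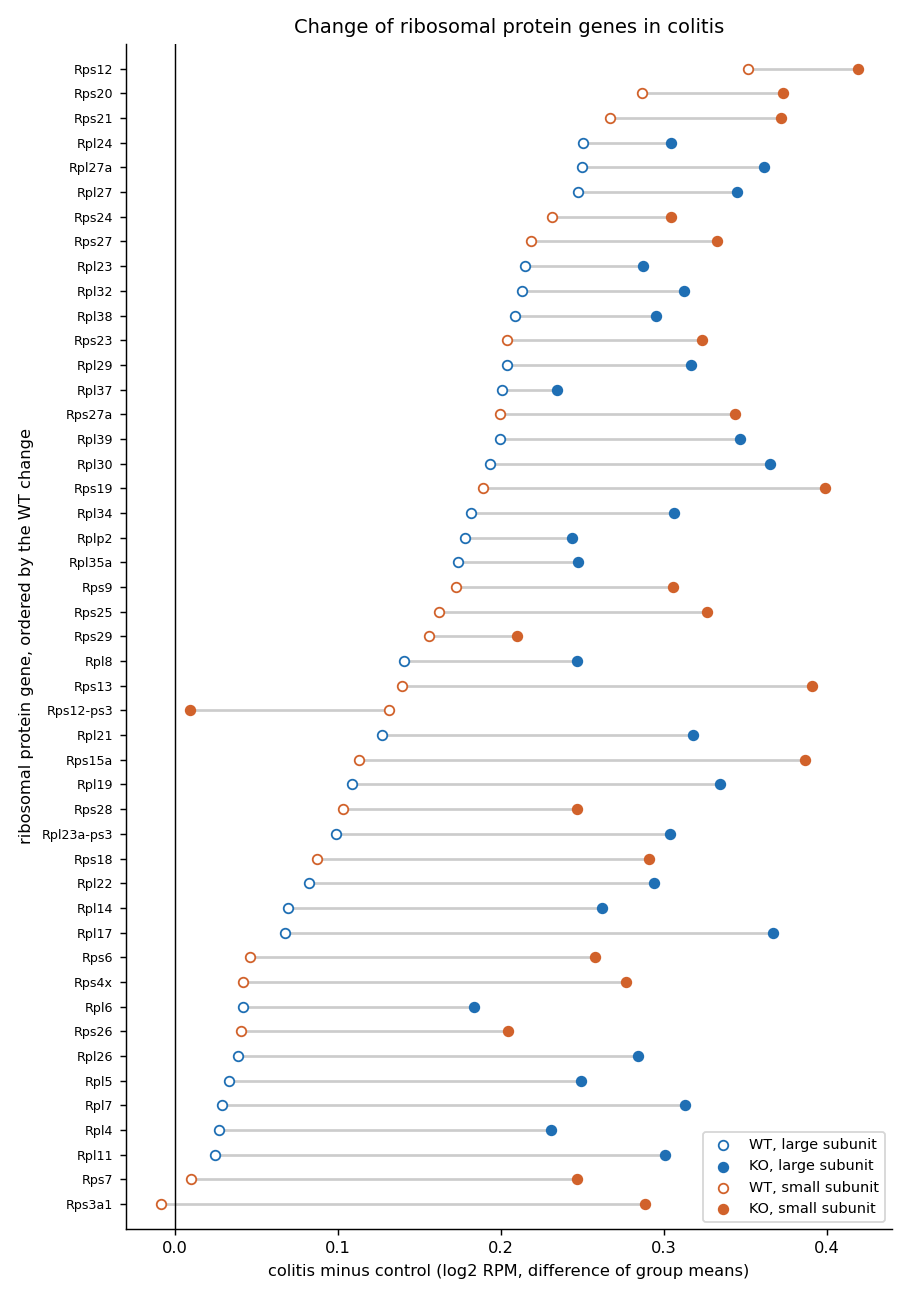
Change of 47 of the 49 genes in colitis (x axis, difference of group means in log2 RPM; y axis, genes ordered by the WT change). Open circles stand for WT and filled circles for KO, blue for the large and orange for the small subunit. The filled circle lies to the right of the open one in 46 of these 47 genes, with Rps12-ps3 the other way round.

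Rps12, a protein of the beak of the small subunit, had the highest change in both genotypes and is the gene listed in both colitis tables. Its gene lies at chr10:23785183-23787275 on the minus strand (GRCm38). In WT the authors' means were 8.74 log2 RPM without and 9.09 with colitis, a fold of 1.28, and in KO they were 8.74 and 9.16, a fold of 1.34. Both control means were the same to 2 decimals, and the KO colitis mean was 0.07 above the WT colitis mean. Counting error alone would give these changes an SE well below their size, since the lowest of the 47 genes without -ps still had 2338 reads per library. The largest counting SE of any change over the 49 genes other than Rps12-ps3 was 0.03, and the spread between mice is not part of it.

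Next to Rps12 in WT stood 2 more small subunit genes and 2 of the large subunit. Rps20, a protein of the small subunit head, had means of 9.21 in WT control and 9.50 in WT colitis, and of 9.29 in KO control and 9.66 in KO colitis. Rps21 had 8.80 and 9.07 in WT and 8.70 and 9.07 in KO, so its colitis means were the same in both genotypes to 2 decimals. Rpl24, which takes part in a bridge between the subunits, had 9.27 and 9.52 in WT and 9.21 and 9.52 in KO. For Rpl27a the means were 9.41 and 9.66 in WT and 9.42 and 9.78 in KO. In this group of genes the change in WT was 0.25 to 0.35 and that in KO was 0.30 to 0.42.

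At the lower end of the WT order the control and colitis means were nearly equal, while those of KO were not. The genes named here had all passed the threshold of the KO comparison, so a KO change was required of them. Rps3a1 lies at chr3:86137940-86142702 on the minus strand and codes for a small subunit protein near the exit of the messenger RNA channel. It had 10.63 in WT control and 10.62 in WT colitis, against 10.65 in KO control and 10.94 in KO colitis, and is thus the gene with the largest difference between genotypes in colitis after Rps12-ps3, 0.32. Rpl11, which binds Mdm2 together with Rpl5 when ribosome assembly fails, had 9.79 and 9.82 in WT and 9.79 and 10.09 in KO, a difference between genotypes of 0.28 in colitis. Neither gene was in the table of KO against WT in colitis.

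The other 3 genes of the low WT end showed the same arrangement. Rps7, of the small subunit, had 10.24 and 10.25 in WT and 10.15 and 10.39 in KO. Rpl4, a protein of the wall of the exit tunnel, had the highest mean RPM of the 49 genes in each group, with 11.18 and 11.21 in WT and 11.12 and 11.35 in KO. Rpl7 had 10.57 and 10.60 in WT, and 10.44 and 10.75 in KO. In each of these 5 genes the WT change was below 0.05, and the KO change lay between 0.23 and 0.31. They were listed for their KO change and named for a low WT change, so this arrangement follows from their selection.

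The order of the genes in KO was led by the small subunit. Rps19, the gene most often mutated in Diamond-Blackfan anaemia, had a change of 0.40 in KO (9.68 to 10.08) and of 0.19 in WT (9.77 to 9.96). The change of Rps13 was 0.39 in KO (8.65 to 9.04) and 0.14 in WT (8.70 to 8.84). The values of Rps15a were 0.39 in KO (8.71 to 9.10) and 0.11 in WT (8.81 to 8.92). With Rps12 and Rps20 these are the highest KO changes, all 5 of the small subunit. The lowest of them, 0.373 for Rps20, was close to the highest of the large subunit, 0.367 for Rpl17. Their counting SEs were 0.013 and 0.015, so the order of these 2 genes is not resolved.

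The lowest KO changes, apart from Rps12-ps3, belonged to genes of both subunits. Rpl6 had 9.89 and 9.93 in WT and 9.93 and 10.11 in KO. Rps26, which lies at the messenger RNA exit, had 9.64 and 9.68 in WT, and 9.62 and 9.82 in KO. Rps29, a zinc-binding protein of the small subunit head, had 9.06 and 9.22 in WT and 9.17 and 9.38 in KO. With 0.23, Rpl4 completed this end of the order. Rplp2, an acidic protein of the stalk that recruits translation factors, had 9.13 and 9.31 in WT and 9.21 and 9.45 in KO, changes of 0.18 and 0.24. It was the stalk protein that was listed, and Rplp0 and Rplp1 were in none of the tables.

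The remaining genes lay between these ends, and most are named here. In WT, Rpl27, Rps24, Rps27, Rpl23, Rpl32, Rpl38, Rps23, Rpl29 and Rpl37 had changes of 0.20 to 0.25. Rps27a, which is made as a fusion with ubiquitin, Rpl39, Rpl30, Rpl34, Rpl35a, Rps9, Rps25, Rpl8, Rpl21, Rpl19 and Rps28 stood between 0.10 and 0.20. Rps18, Rpl22, Rpl14, Rpl17, Rps6, Rps4x, Rpl26 and Rpl5 stood between 0.03 and 0.09. In KO the changes of all of these genes were between 0.23 and 0.37. All of them had passed the threshold of the KO comparison, which leaves out small KO changes. The widths of the WT and KO ranges can therefore not be compared. Rps6, the substrate of the S6 kinases, had a change of 0.05 in WT and 0.26 in KO.

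The colitis mean exceeded the control mean by more in KO than in WT in 48 of 49 genes, by 0.14 at the median. Among the genes listed in the KO table alone this held for 47 of 47 ribosomal protein genes. It also held for 89% of the 876 other genes that were higher in colitis and listed in the KO table alone. These 876 genes had medians of 0.22 (WT) and 0.34 (KO), and for the 145 of them with a mean level of at least 8 log2 RPM it was 0.16 and 0.27, against 0.16 and 0.30 for the 47 ribosomal protein genes. A difference between genotypes in this change was not tested, because the tables carry no value that would allow it.

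**Figure D2:**
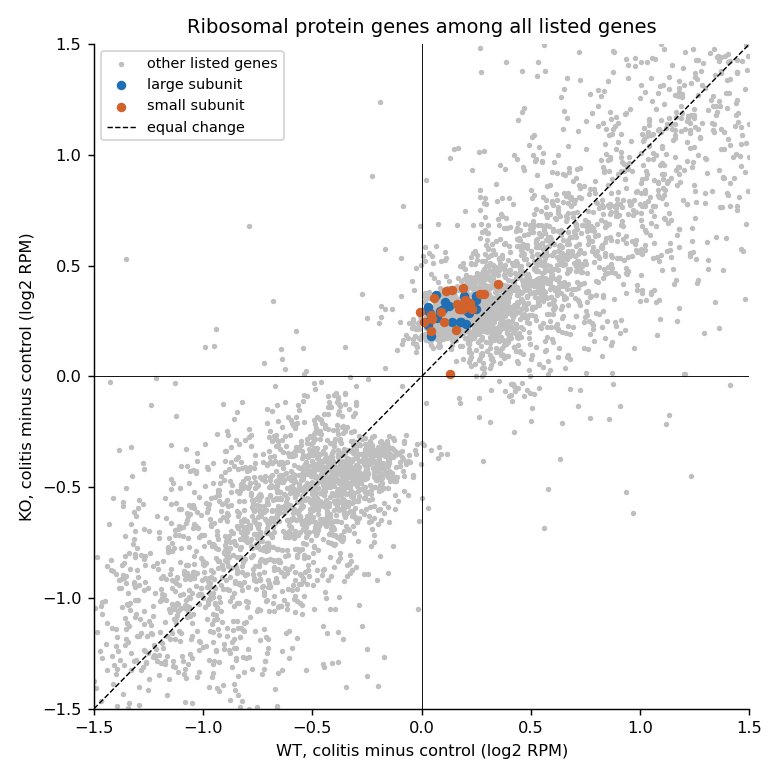
Change in colitis in WT (x axis) and KO (y axis), both as differences of group means in log2 RPM. Grey points are the other listed genes within 1.5 of 0, coloured points the ribosomal protein genes, and the dashed line marks equal change. The ribosomal protein genes form a compact group above the line, at 0 to 0.35 in WT and, apart from Rps12-ps3, 0.18 to 0.42 in KO, among grey points of similar position.

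Between genotypes the median differences were smaller and of opposite sign in the 2 conditions. In control mice the KO mean was below the WT mean in 37 of 49 genes, against 49% of all distinct genes, with a median difference of -0.06. In colitis it was above the WT mean in 42 of 49 genes, against 47.4%, with a median of 0.11. Of the 876 other genes just described, 74.5% had the lower KO mean in control and 74.8% the higher KO mean in colitis. These differences use the same group means as the colitis changes and are no separate evidence. In the table of KO against WT in control, which holds 0.89% of all distinct genes, stood 1 of the 49 genes, Rps12-ps3, and in that of KO against WT in colitis, which holds 1.08%, stood 0 of 49.

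Among the genes without -ps, the lowest control differences belonged to Rps27 (-0.20), Rpl21 (-0.20) and Rpl30 (-0.20), and the highest to Rps29 (0.11) and Rplp2 (0.08). Rps27, a zinc-binding small subunit protein, had 9.65 in WT control and 9.45 in KO control, and 9.87 in WT colitis and 9.78 in KO colitis, so its KO mean was the lower in both conditions. Rpl30, of the large subunit, had 9.47 and 9.27 in control and 9.66 and 9.64 in colitis. In colitis the highest differences after Rps3a1 and Rpl11 were those of Rps13 (0.20), Rps6 (0.19) and Rpl19 (0.19).

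The large and small subunit had nearly equal medians. The median change in WT was 0.16 for both, over 26 large and 23 small subunit genes. In KO it was 0.30 for the large and 0.31 for the small subunit. In control the median difference of KO from WT was -0.06 for both, and in colitis it was 0.11 for both. The ranges overlapped in each of the 4 comparisons, from 0.02 to 0.25 for the large and from -0.01 to 0.35 for the small subunit in WT. No test of the subunit difference was made, and with medians alone a small difference cannot be told from none.

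**Figure D3:**
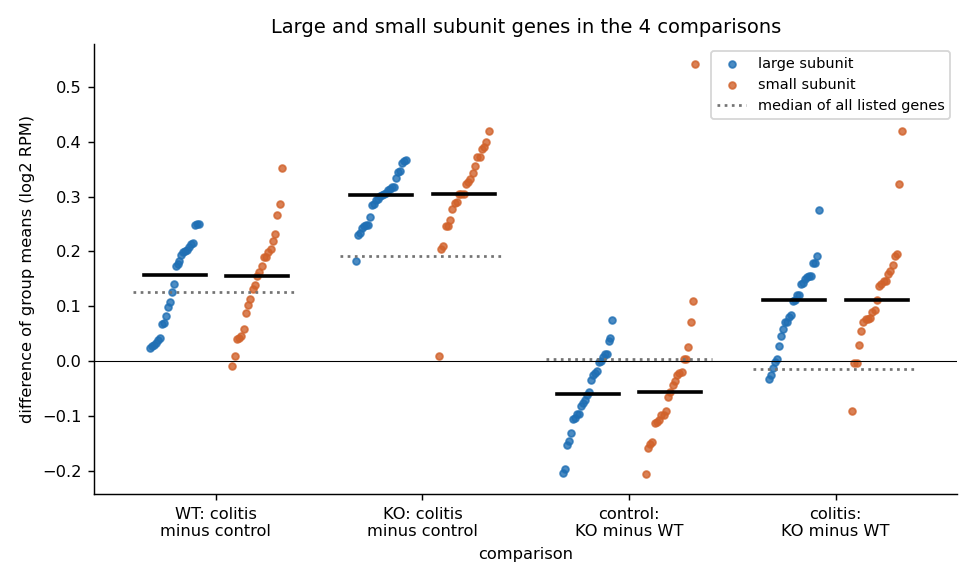
Differences of group means (y axis, log2 RPM) in the 4 comparisons (x axis) for the 26 large (blue) and 23 small (orange) subunit genes. Black bars are medians and dotted lines the medians of all 5171 listed genes. The bars of both subunits lie at nearly the same height in each comparison, and the point at 0.54 in control is Rps12-ps3.

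Summed over the 49 genes, the back-transformed means came to 3.91% of reads in the WT and 3.76% in the KO controls, and to 4.26% and 4.61% with colitis. In the same order, the large subunit genes held 1.96%, 1.89%, 2.13% and 2.30%, and the small subunit genes 1.95%, 1.87%, 2.13% and 2.31%. The order of the groups was the same for both subunits, with KO control lowest and KO colitis highest. Of the 49 genes, 48 had passed the threshold of the KO comparison with a higher mean in colitis. The selection therefore favoured this order in both subunits, and the rise of the KO sum tends to be overstated. These sums leave out the 29 core symbols of the same form that are in no table, among them Rpl3, Rpl10, Rpl13a, Rpl15, Rps2, Rps3 and Rps14, so they are not the whole output for ribosomal proteins. In whole tissue, more cells that express a gene and more RNA per cell cannot be told apart.

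Levels between genes were compared per kilobase of the principal transcript in GENCODE M21, for the 47 genes without -ps. On this scale the median in WT control was 10.2 log2 RPM per kilobase, with a range from 7.32 to 11.19. The median of the 22 small subunit genes was 10.33 and that of the 25 large subunit genes 9.59 in WT control, and 10.54 and 9.87 in KO colitis. Rps27, Rps18 and Rps9 were highest. Rps20 was lowest, and its annotated principal transcript of 3706 bases, far longer than its coding sequence of 357 bases, lowers its value. The same holds to a lesser degree for other genes, such as Rpl23 (1059 against 420 bases), Rpl27a (1158 against 444) and Rps24 (1613 against 399). The subunit medians on this scale depend on the annotated lengths and do not establish a difference in expression.

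Among the listed genes the change in WT differed with the length of the coding sequence, and that in KO did so less. Across the 47 genes without -ps, coding length (log2) and WT change had Pearson's r of -0.54 and Spearman's rho of -0.55, and coding length and KO change -0.19 and -0.17. These are descriptions across genes that share libraries, levels and base composition, and are no test. All 47 genes had passed the threshold of the KO comparison, which leaves out small KO changes and can weaken the KO coefficients. The WT and KO coefficients can therefore not be read as a difference between genotypes. Over 4617 other listed genes the coefficients were -0.19 and -0.22 in WT and -0.24 and -0.27 in KO. The 7 genes with a coding sequence under 300 bases had medians of 0.20 (WT) and 0.29 (KO), the 30 genes from 300 to below 600 bases had 0.18 and 0.32, and the 10 genes of 600 bases or more had 0.04 and 0.26. Mean level went with the WT change too (r of -0.46, rho of -0.44), and longer genes collect more reads.

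**Figure D4:**
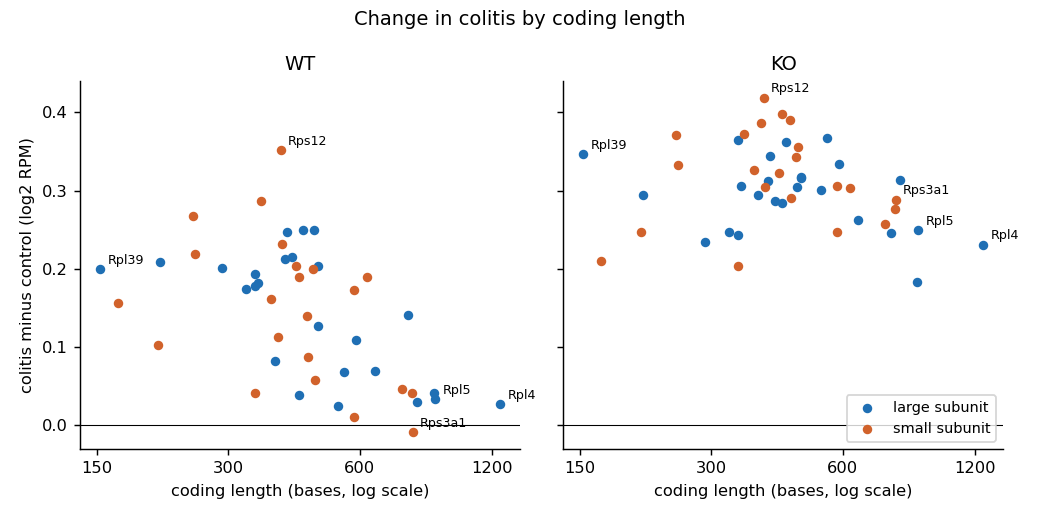
Change in colitis (y axis, difference of group means in log2 RPM) against coding length (x axis, bases, log scale) for 47 genes, WT on the left and KO on the right, blue for the large and orange for the small subunit. In WT the long genes Rpl4, Rpl5 and Rps3a1 lie near 0, and in KO they lie between 0.23 and 0.29. All 47 genes had passed the threshold of the KO comparison.

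Both -ps genes share sequence with an intron-containing parent gene, which limits what their values can say. Rps12-ps3 lies at chr19:59322290-59322783 on the plus strand, inside Pdzd8, which is on the minus strand, and GENCODE M21 gives it as protein coding. Its transcript has 494 bases, and each of its 395 windows of 100 bases, the read length in the labels, also occurs in an Rps12 transcript. The 494 bases are contained whole in the transcript Rps12-203. Aligned to another transcript, Rps12-201 of 490 bases, it lacks 15 bases. The stretches around them are shown with these bases in capitals.
Rps12-201, bases 177 to 241: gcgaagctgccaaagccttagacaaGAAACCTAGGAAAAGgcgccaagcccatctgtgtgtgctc
Rps12-ps3, bases 188 to 237: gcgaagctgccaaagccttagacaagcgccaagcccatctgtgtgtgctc

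In control mice the authors' mean of Rps12-ps3 was 5.18 log2 RPM for WT and 5.72 for KO, and in colitis it was 5.31 and 5.73. Both KO means thus lay above both WT means, by 0.54 in control and 0.42 in colitis, and the changes in colitis were 0.13 in WT and 0.01 in KO. It is the 1 gene of the 49 that was absent from both colitis tables, and the 1 gene in a table of KO against WT. Rps12 itself differed by 0.00396 between genotypes in control and by 0.07 in colitis. The means of Rps12-ps3 stand for 318 to 524 reads per library, with a counting SE of 0.06 for the control difference. Since no 100-base stretch of its transcript is its own, a read wholly inside it cannot be told by sequence from one of an Rps12 transcript. Reads that cross the edges of the locus were not examined, and how the aligner divided the reads was not tested.

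Rpl23a-ps3 lies at chr14:34170655-34171168 on the plus strand in the tables and is a processed pseudogene in GENCODE M21. Its 468 annotated bases match the transcript Rpl23a-201 with 1 substitution, A157T (the base of Rpl23a-201 first, positions counted from 1 at its first base). Of its 369 windows of 100 bases, 100 hold that base and 269 occur unchanged in Rpl23a transcripts. The differing base is in capitals below.
Rpl23a-201, bases 132 to 182: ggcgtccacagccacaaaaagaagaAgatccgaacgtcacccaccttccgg
Rpl23a-ps3, bases 91 to 141: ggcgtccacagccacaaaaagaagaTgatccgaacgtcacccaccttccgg

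Its authors' means were 7.30 and 7.40 in WT, and 7.27 and 7.58 in KO, changes of 0.10 and 0.30 that fell within the range of the coding genes. Rpl23a was in none of the tables, so the pair could not be compared. GENCODE M21 has 291 genes with a ribosomal protein symbol and -ps, of which these 2 were listed.

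Other genes of translation were counted from fixed lists. Beside these counts, 78.4% of all distinct genes were in the KO table and 63.1% in that of WT, and the medians of all genes were 0.19 and 0.13. Of 52 initiation factor genes 21 were listed. In KO, 18 of them passed and rose and 1 fell, and in WT it was 4 and 0. The median was 0.14 for WT and 0.26 for KO, beside 0.16 and 0.30 for the ribosomal proteins. Most listed initiation factor and ribosome assembly genes, like the ribosomal proteins, were listed as rising genes of the KO comparison. The 145 genes of high mean level described above, which were listed that way, had 0.16 and 0.27. Close medians are therefore no sign of a likeness particular to genes of translation. In WT, Eif4e3, a cap-binding protein (1.38), and Eif2ak2, the kinase activated by double-stranded RNA (0.49), had the highest changes, and Eif4a2, a helicase of the cap-binding complex (-0.22), and Eif3f (-0.04) the lowest.

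Of 82 ribosome assembly genes 27 were listed. In KO, 23 passed and rose and 2 fell, and in WT it was 2 and 2, with median changes of 0.33 in KO and 0.18 in WT. Nhp2, a protein of the particles that modify ribosomal RNA (0.41), and Tbl3 (0.34) had the highest WT changes, and Polr1b, a subunit of RNA polymerase I (-0.43), and Sbds, which helps to release a factor that keeps the subunits apart (-0.40), the lowest. The KO mean was 0.13 below the WT mean at the median in control and 0.03 above it in colitis.

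Of 10 elongation factor genes 6 were listed. In KO, 4 passed and rose and 1 fell, and in WT it was 1 and 2, with medians of 0.21 for KO and 0.07 for WT. Eif5a (0.31) and Eef1a1, the carrier of aminoacyl-tRNA (0.08), had the highest WT changes, and Eef1a2, its paralog of muscle and nerve (-1.71), and Eef2k, the kinase that inhibits elongation (-0.39), the lowest. The mean of Eef1a1 alone ran from 13.32 log2 RPM in both controls to 13.56 with colitis in KO.

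Of 36 genes of growth signalling to ribosomes 7 were listed, with medians of -0.46 (WT) and -0.32 (KO). In WT, 0 passed and rose and 4 fell, and in KO it was 2 and 1. Mlx (0.24) and Rraga, a GTPase that brings the kinase mTOR to lysosomes (-0.08), had the highest WT changes. Mycn (-1.37) and Mycl (-0.56), transcription factors of the Myc family, had the lowest. Mlx (0.20) and Rraga (0.17) were the 2 that rose in KO.

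**Figure D5:**
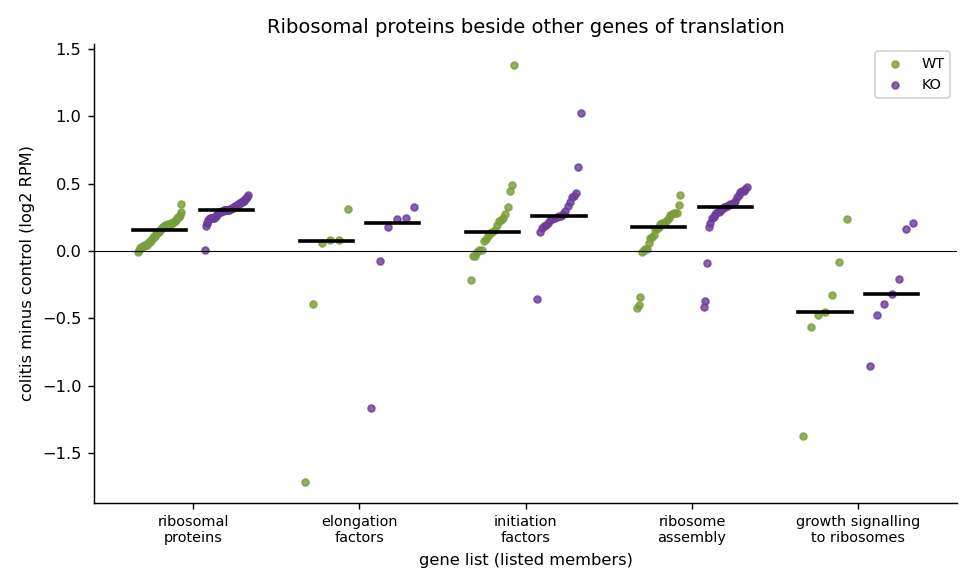
Change in colitis (y axis, difference of group means in log2 RPM) for the listed genes of 5 gene lists (x axis), WT in green and KO in purple, with black bars at the medians. The ribosomal protein medians of 0.16 and 0.30 are close to those of initiation factors and ribosome assembly, and those of growth signalling lie below 0. The genes with close medians were mostly listed as rising genes of the KO comparison, so the closeness is no sign of likeness.

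Markers of T cells, macrophages, neutrophils and fibroblasts had larger median changes than the ribosomal proteins. All 7 listed T cell markers of 7 had higher colitis means, and their summed RPM was 23.8 (WT) and 22.2 (KO) in control and 67.8 and 72.1 in colitis. The highest WT changes were those of Cd3d (3.22) and Cd8a (3.13) and the lowest those of Cd2 (0.47) and Cd4 (1.04). All 8 macrophage markers were listed and rose in both tables, from 819 and 857 RPM in control to 1944 and 1900 in WT and KO colitis. Itgam (1.5) and Lyz2 (1.41) had the highest, and Adgre1 (0.59) and Csf1r (0.62) the lowest WT changes. Cd79b was the 1 of 7 B and plasma cell markers that was listed, with changes of 0.23 in WT and 0.93 in KO.

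Neutrophil markers, listed 7 of 7, summed to 9.91 RPM (WT) and 11.2 RPM (KO) in control, and to 211 and 60.7 in colitis. S100a9 (6.36 log2 RPM) and S100a8 (5.54) had the highest means in WT colitis, and Mmp9 (1.76) and Retnlg (3.44) the lowest WT changes. The WT control means of Cxcr2, Mmp8 and S100a8 were below the level of 3 reads per library, so no fold is given for them. In all 7 of these genes, as in the 5 fibroblast genes below, the KO colitis mean was the lower. It was the higher in Cd79b and in 42 of the 49 ribosomal protein genes, against 47.4% of all distinct genes. Cd79b and 47 of the 49 were listed through the KO colitis comparison alone. Of the 876 other rising genes listed that way, 74.8% had the higher KO mean too. The neutrophil and fibroblast markers were mostly listed in both colitis comparisons, so these sets were not selected alike. The T cell markers had a median difference of KO from WT in colitis of 0.12 (-0.12 to 0.27). For the macrophage markers it was -0.01 (-0.39 to 0.13). Of 6 fibroblast markers 5 were listed and rose in both tables, and they summed to 2555 and 2479 RPM in WT and KO control, and 4935 and 3670 in WT and KO colitis. Col1a1 (1.23) and Lum (1.07) had the highest WT changes and Dcn (0.64) and Col3a1 (0.93) the lowest.

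Markers of epithelium and muscle were mostly lower in colitis. Car1 and Slc26a3, the 2 of 10 colonocyte markers that were listed, had WT changes of -0.83 and -1.31 and KO changes of -1.49 and -0.63. Myh11 (-0.66), Acta2 (-0.59) and Synpo2 (-0.58), the 3 of 7 smooth muscle markers listed, were lower in WT colitis. The 2 of 7 goblet cell markers listed differed in direction, Clca1 with -1.15 and Spink4 with 1.00 in WT, and 0 of 6 proliferation markers were listed. The part of these cell types in the changes of the ribosomal protein genes was not tested.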

How the data were processed

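RNA of 16 whole colon samples was sequenced by the authors on a BGISEQ-500, as 100-base single-end reads per the labels (the methods give paired ends). Per the labels and methods, the authors mapped reads with HISAT2 2.1.0 to GRCm38, kept uniquely mapped reads, removed reads over annotated ribosomal RNA, found as contamination in some unnamed samples, and counted reads over exons in SeqMonk. The 4 tables deposited by the authors hold log2 RPM as the mean of each group, for genes with an adjusted p under 0.05 in the authors' DESeq2 comparison, and the authors' FDR. That column is a result of the study and was not used. RPM are reads per 1000000 reads of the library, and the means are not corrected for gene length. The same gene had the same means in each table (0 genes differed).

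Groups were taken from the sample titles. Changes are differences of the authors' means, summarised by medians and counts, in Python 3 with pandas. No test was made, since the deposited tables give no values of single libraries. Read counts by sample in the study's supplement were not used. Low means lay on steps of whole reads (0 reads set to 0.9), which gave library sizes, a level for 3 reads per library, and a Poisson counting SE of each change. That step was tested on simulated data. The SE covers counting error only. The genes named are the 5 highest and 5 lowest changes in each genotype, every gene in a table of KO against WT, every -ps gene, the stalk proteins, and the 2 highest and 2 lowest WT changes of each other list. The members, lists and rules were chosen with earlier results of these data known. A few genes are included in the counts but are not reported by name here. Genes whose differences between genotypes are named outside this rule were chosen after their values were seen.

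Coding and transcript lengths are those of the shortest principal transcript in GENCODE M21, with the coordinates of 45 of 49 genes identical to the tables. Promoters are from RefSeq on GRCm38.p6. Copies were aligned with Biopython.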

Additional observations from a re-analysis of the deposited data

How the results depend on the processing

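Over 8 results and 62 alternative values, 53 moved by less than 0.05 on the log2 scale or, for counts, by less than 1.5 times. Many of them could hardly move. The level minimum removed none of the 49 genes, and the core list held the same 47 genes as leaving out -ps names. At these levels log2(RPM + 1) is close to log2 RPM, and a shift common to all genes cannot alter the subunit difference. The count of 53 is therefore no measure of robustness. These limits stand in for a spread between replicates, which the means do not give. Relative to the median change of all distinct genes, the median of the ribosomal protein genes was 0.029 in WT and 0.11 in KO, and 28 of 49 genes were higher in WT colitis. Relative to the summed RPM of the other listed genes the KO median was 0.24, and 38 of 49 genes were higher in WT colitis. With the 1 gene of the WT table, Rps12, the medians were 0.35 in WT, 0.42 in KO and 0.00396 for KO against WT in control, a change of sign, each count was 1, and the subunit difference gave no value. With the 48 genes of the KO table, the large minus small subunit difference in WT was -0.002 in place of 0.001. Leaving out -ps names, the core list, a level minimum of 5 log2 RPM and log2(RPM + 1) changed no direction.

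No paired analysis was possible because the deposited tables hold group means, and read counts by sample in the study's supplement were not used. Leaving out replicates was not run for the same reason. The values have no spread between mice, the listed genes were selected by the comparisons described, and unlisted ribosomal protein genes were not analysed here. The counting SE of the changes of the 47 coding genes was at most 0.03, and in WT that of Rps7 and Rps3a1 (0.01 each) was about as large as the change.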

Other observations

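Mitochondrial ribosomal proteins, which are encoded in the nucleus and build the separate ribosome of mitochondria, were listed with 15 genes, named by symbols that start with Mrpl or Mrps and a digit. All 15 had a higher mean in colitis in both genotypes, as had 54% (WT) and 54.3% (KO) of all distinct genes, with a median change of 0.21 in WT and 0.32 in KO. They stood in the KO table in 14 cases and in the WT table in 4, against 78.4% and 63.1% of all distinct genes. Most of them were listed through the KO comparison alone, so a KO change was required of these. Mrpl27 (0.50) and Mrpl33 (0.44) had the highest WT changes and Mrpl47 (0.05) and Mrps5 (0.10) the lowest. The KO mean in colitis was above the WT mean in 9 of the 15 genes, with a median difference of 0.01. Whether this differs from the cytosolic ribosomal proteins was not tested.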
